A study of Mus musculus with 11 samples.

Results

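The genes described here carry the fluid part of tears, and were examined in whole lacrimal glands of male NOD mice, a strain in which males spontaneously develop inflammation of the tear gland. They are a named list of 9 of the 19058 genes in the deposited table. The list holds the water channels *Aqp5*, *Aqp3* and *Aqp4*, the chloride and cation transporters *Slc12a2*, *Ano1*, *Kcnn4* and *Cftr*, the muscarinic receptor *Chrm3* and the calcium sensor *Stim1*. The groups were 3 wild-type (WT) NOD mice, 5 *Tlr7* KO NOD mice and 3 *Ifnar1* KO NOD mice, with 1 gland sequenced per mouse. *Tlr7* KO mice carry a 2 base-pair deletion made in NOD embryos by CRISPR/Cas9, taken from 1 allele and bred to homozygosity. *Ifnar1* KO mice are homozygous for the em16 allele of the type I interferon receptor gene on the NOD background. WT and *Tlr7* KO mice were between 20 and 22 weeks old, and the age of the *Ifnar1* KO mice is not given in the sources used here. Both knockouts are constitutive, so that every cell type of the gland carried the mutant allele. The study showed loss of TLR7 protein in splenocytes. The study excluded 1 more *Ifnar1* KO gland that resembled WT in expression and in histology, so this group was in part selected on its outcome. Both knockouts were compared with the same 3 WT mice.

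Tear fluid is made by acinar cells in a sequence that is well known for this gland. Acetylcholine from parasympathetic nerves binds the M3 receptor encoded by *Chrm3*, which through Gq, phospholipase C and IP3 receptors empties calcium from the endoplasmic reticulum, and STIM1 senses the loss and opens ORAI channels of the plasma membrane. Calcium opens the chloride channel ANO1 on the luminal side and the potassium channel encoded by *Kcnn4*, which keeps the membrane voltage that drives chloride out, while the cotransporter NKCC1 encoded by *Slc12a2* loads chloride from the blood side. Sodium and water follow, and AQP5 is the water channel of the luminal membrane.

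The WT libraries held between 20512315 and 27174764 counts assigned to genes, *Tlr7* KO libraries between 24857275 and 28814250, and *Ifnar1* KO libraries between 25542645 and 26845375. Levels are given as CPM, the counts scaled to library size with TMM factors, in which 3 counts correspond to between 0.0819 and 0.158 CPM depending on the mouse. Acinar markers (4 of 4 genes present) summed to between 1610 and 2830 CPM in WT and to at least 4950 CPM in every knockout mouse, a sum made up mostly of *Lpo* (1594 CPM in WT, 4527 CPM in *Tlr7* KO and 4754 CPM in *Ifnar1* KO). Of the 4, 2 were higher and 1, *Sox10*, was lower in each knockout. Several libraries stood apart. Salivary gland genes (*Bpifa2*, *Amy1* and *Muc19* of 4 listed, with *Muc19* at 0 in WT) summed to 2397 CPM in WT 3, 2060 CPM in *Ifnar1* KO 2 and 176 CPM in *Ifnar1* KO 1, against at most 3.01 CPM in the other mice. Skeletal muscle genes (6 of 6) summed to 368 CPM in WT 1, 276 CPM in WT 2 and 259 CPM in *Tlr7* KO 4, against at most 9.97 CPM elsewhere. *Tlr7* averaged 0.778 ± 0.176 CPM (SD, n = 5) in its knockout against 2.39 ± 0.762 CPM (SD, n = 3) for WT (adjusted p = 0.00365). *Ifnar1* averaged 9.01 ± 0.648 CPM (SD, n = 3) in its knockout against 13.5 ± 2.62 CPM (SD, n = 3) for WT (adjusted p = 0.0485), so both transcripts were lower in their own knockout but still detected. Each was also lower in the other knockout. *Tlr7* averaged 0.562 CPM in *Ifnar1* KO mice (adjusted p = 0.026 against WT), and *Ifnar1* averaged 9.55 CPM in *Tlr7* KO mice (adjusted p = 0.022), so these levels do not check the labels.

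Per kilobase of merged exon, *Aqp5* was the most abundant of the 9 genes and *Ano1* the second in all 11 mice. Merged exon length joins all annotated transcripts of a gene, so ranks of genes at similar levels are approximate. The mean level over the 11 mice was 52.8 CPM per kilobase for *Aqp5* (range 34.7 to 64.9) and 3.73 for *Ano1* (range 2.85 to 6.51). *Slc12a2* (1.63), *Stim1* (1.54), *Chrm3* (1.41) and *Kcnn4* (0.94) followed, and their ranges overlapped. *Slc12a2* and *Stim1* each held ranks between 3 and 5, and *Chrm3* and *Kcnn4* ranks between 3 and 6. *Kcnn4* reached rank 3 only in WT 3. *Aqp3* (0.142), *Aqp4* (0.0649) and *Cftr* (0.0176) were the least abundant, and none of these exceeded 20 counts in any mouse.

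**Figure D1:**
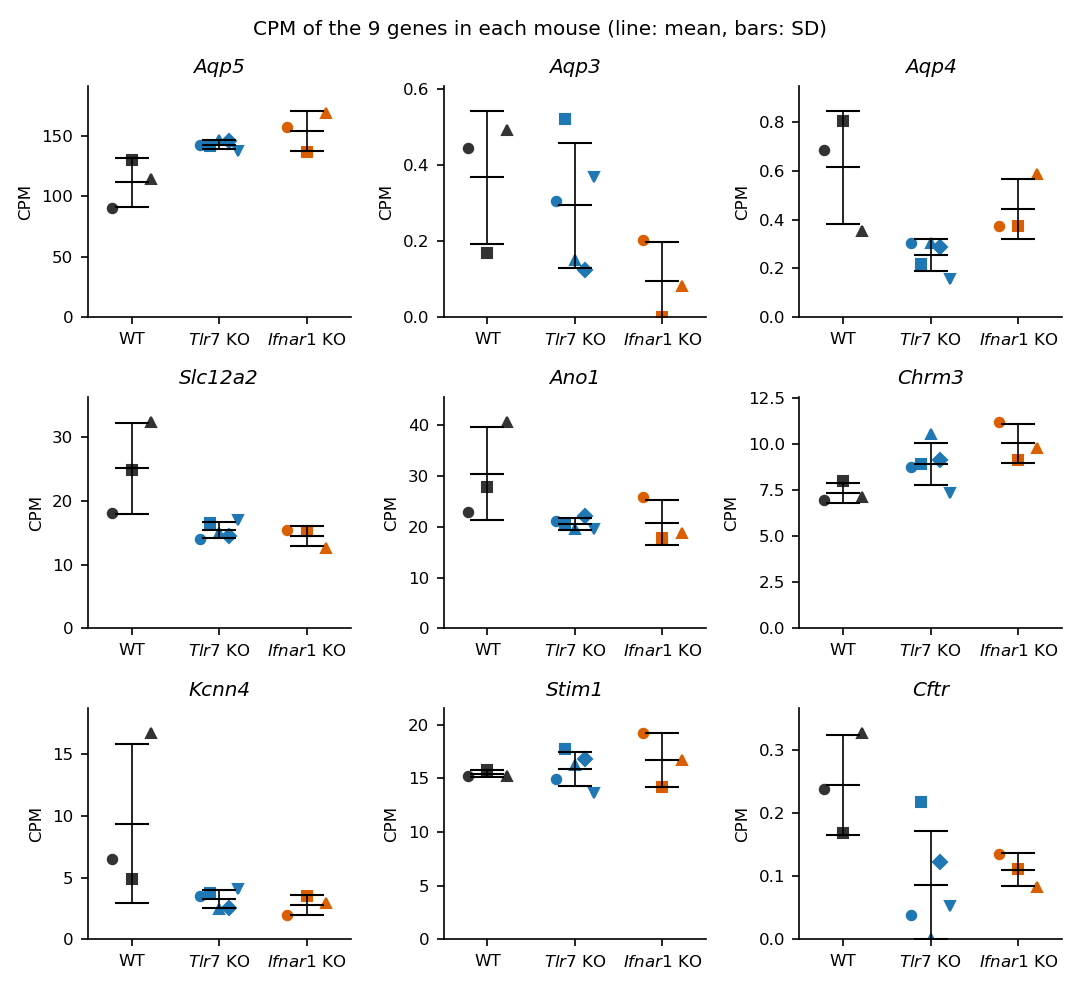
Level of each of the 9 genes in every mouse, in CPM on a linear axis from 0, with the group mean as the middle line and the SD as bars; the symbol gives the replicate number. The WT mice lie above every knockout mouse for *Slc12a2* and *Kcnn4* and below every knockout mouse for *Aqp5*, and WT 3 is the highest mouse for *Slc12a2*, *Ano1* and *Kcnn4*.

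The genes that carry chloride and potassium were compared between WT and *Tlr7* KO glands to ask whether loss of TLR7 went with a change in the secretion machinery. *Slc12a2*, *Ano1* and *Kcnn4* were all lower in *Tlr7* KO glands. Of the 8 genes with enough counts to test, 5 passed an adjusted p of 0.05, with 4 lower and 1 higher in *Tlr7* KO, where 32.8% of all 13937 genes tested passed (17.4% lower and 15.3% higher). Their groups did not overlap for 5 of the 8, where 30.9% of all genes tested did not overlap. On the log2 scale the 8 genes changed by a median of -0.47, and all genes tested by -0.04. The number called was 3 without WT 3, where 20.2% of all genes then tested were called, and 2 without *Tlr7* KO 3, where 23.6% were. Duct markers, of which 6 of 7 could be tested, had 3 lower and 0 higher in each knockout (median log2 fold change -0.55 in *Tlr7* KO and -0.88 in *Ifnar1* KO), while their summed CPM overlapped between the groups (52.4 to 72.7 in WT, 51.1 to 64 in *Tlr7* KO and 58.9 to 68.3 in *Ifnar1* KO). Of the myoepithelial markers 5 of 6 could be tested, and 5 were lower in *Tlr7* KO and 1 in *Ifnar1* KO. None of the duct or myoepithelial markers was at 0 in a whole group, and the part of these cells in the lower *Slc12a2*, *Ano1* and *Kcnn4* was not tested.

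*Kcnn4* (ENSMUSG00000054342, chr7:24370263-24386690, plus strand), the calcium-activated potassium channel that is also known from T lymphocytes, was measured at 6.50, 4.89 and 16.7 CPM in WT mice 1 to 3, and at 3.48, 3.78, 2.43, 2.55 and 4.12 CPM in *Tlr7* KO mice 1 to 5. Every WT mouse lay above every *Tlr7* KO mouse, and WT 3 was far above the other WT mice. *Kcnn4* was 2.90-fold lower in *Tlr7* KO (log2 fold change -1.54, standard error 0.368, adjusted p = 0.0128). Without WT 3 the log2 fold change was -0.81 (adjusted p = 0.0421). T cell markers (7 of 7 genes, including *Cd3e* and *Lck*) summed to between 24.2 and 80 CPM in WT, between 5.58 and 28.5 CPM in *Tlr7* KO and between 1.47 and 14.4 CPM in *Ifnar1* KO mice, none of them at 0 in a whole group, and 6 of the 7 were lower in each knockout. WT 2, with 24.2 CPM of T cell markers, had more *Kcnn4* (4.89 CPM) than *Tlr7* KO 2 (3.78 CPM), which had 28.5 CPM. In contrast, *Tlr7* KO 3 had the least of both in its group (5.58 CPM of T cell markers and 2.43 CPM of *Kcnn4*). *Ifnar1* KO 2 had the most of both in its group (14.4 and 3.55 CPM). The part of T cells in the *Kcnn4* difference was not tested, and in whole glands fewer cells of a type and less RNA per cell cannot be told apart.

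*Slc12a2* (ENSMUSG00000024597, chr18:57878678-57946821, plus strand), which encodes the Na-K-2Cl cotransporter NKCC1, was at 18.1, 24.9 and 32.4 CPM in the WT mice and at 14.1, 16.6, 15.0, 14.5 and 17.1 CPM in the *Tlr7* KO mice. The groups did not overlap, although WT 1 lay only slightly above *Tlr7* KO 5. *Slc12a2* was 1.63-fold lower in *Tlr7* KO (log2 fold change -0.71, standard error 0.162, adjusted p = 0.0109). Without WT 3 the log2 fold change was -0.48 (adjusted p = 0.0373).

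*Ano1* (ENSMUSG00000031075, chr7:144588549-144751974, minus strand), the calcium-activated chloride channel, was at 22.9, 27.8 and 40.6 CPM in WT and at 21.0, 20.4, 19.5, 22.2 and 19.6 CPM in *Tlr7* KO mice. WT 1 lay just above the highest *Tlr7* KO mouse, and WT 3 was well above both other WT mice. *Ano1* was 1.49-fold lower in *Tlr7* KO (log2 fold change -0.57, standard error 0.158, adjusted p = 0.0226), a call that was lost without WT 3 (log2 fold change -0.30, adjusted p = 0.0572) or without *Tlr7* KO 3. The annotation places an antisense transcript over part of *Ano1*, *Aqp4*, *Cftr* and *Chrm3*, and whether the counting used strand is not given in the sources used here.

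*Cftr* (ENSMUSG00000041301, chr6:18170687-18322768, plus strand), the cAMP-gated chloride channel of ducts and other epithelia, had between 4 and 12 counts in WT, between 0 and 5 in *Tlr7* KO and between 2 and 4 in *Ifnar1* KO mice. It did not reach the minimum of 30 summed WT counts. Its mean was 0.245 CPM in WT, 0.0864 CPM in *Tlr7* KO and 0.111 CPM in *Ifnar1* KO mice, close to the value of 3 counts. Two-sided exact permutation tests gave p = 0.0536 for WT against *Tlr7* KO, p = 0.1 for WT against *Ifnar1* KO, the smallest that 3 mice against 3 allow, and p = 0.661 between the knockouts. In CPM all 3 WT mice lay above all 3 *Ifnar1* KO mice, as far apart as this test can register. However, WT 2 and *Ifnar1* KO 1 both had 4 counts, and their order (0.169 against 0.136 CPM) came from the scaling. Of all genes tested, 41.8% did not overlap between these groups.

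The sequences upstream of *Kcnn4* and *Ano1* are shown because both were lower in *Tlr7* KO glands and their upstream bases could be read from RefSeq (GRCm38.p6). They are 250 bases of *Kcnn4* at chr7:24370013-24370262 on the plus strand and 231 bases of *Ano1* at chr7:144738593-144738823 on the minus strand. The *Ano1* stretch precedes the start that RefSeq gives and lies inside the longer span given above, which begins at a start further upstream in GENCODE. Capitals mark the GC box GGGCGG on either strand.
Kcnn4: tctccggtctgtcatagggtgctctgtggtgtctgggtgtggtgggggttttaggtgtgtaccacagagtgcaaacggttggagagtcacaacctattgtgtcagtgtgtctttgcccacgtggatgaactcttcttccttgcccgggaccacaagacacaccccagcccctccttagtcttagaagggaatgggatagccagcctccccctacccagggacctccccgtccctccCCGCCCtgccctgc
Ano1: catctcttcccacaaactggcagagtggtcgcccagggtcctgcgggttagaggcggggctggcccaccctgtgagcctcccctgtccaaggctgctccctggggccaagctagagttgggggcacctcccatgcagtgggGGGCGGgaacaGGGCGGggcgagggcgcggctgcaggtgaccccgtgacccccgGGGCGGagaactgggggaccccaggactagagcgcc
The table held 7 of the 9 genes. The GC box occurred in 6 of these 7 upstream sequences and in 32.7% of the 32851 promoters searched on both strands. The GAS element TTCNNNGAA (7.02% of all promoters) and the AP-1 element TGANTCA (6.75%) were found in none of the 7, and neither was the core of the interferon-stimulated response element (2.98%), which says only that these letters are absent from this window.

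Of the water channels, *Aqp5* was higher and *Aqp4* lower in *Tlr7* KO glands, and *Aqp3* did not pass the test. *Aqp5* (ENSMUSG00000044217, chr15:99590782-99594829, plus strand) was at 90.2, 129.9 and 113.9 CPM in WT mice and at 142.2, 141.0, 146.2, 145.6 and 137.6 CPM in *Tlr7* KO mice. Every *Tlr7* KO mouse lay above every WT mouse, and the *Tlr7* KO mice differed little among themselves. *Aqp5* was 1.28-fold higher in *Tlr7* KO (log2 fold change 0.35, standard error 0.112, adjusted p = 0.0382). This direction depended on the scaling. With library size only the log2 fold change was -0.11 (adjusted p = 0.636), and with libraries scaled to the 12 epithelial marker genes it was 0.10 (adjusted p = 0.379). Those epithelial genes summed to between 916 and 1110 CPM in WT and between 1160 and 1290 CPM in *Tlr7* KO, and 6 of the 12 were themselves higher in *Tlr7* KO, with 1 lower. The call was also lost on leaving out any single mouse except WT 2.

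*Aqp4* (ENSMUSG00000024411, chr18:15389496-15410982, minus strand), a basolateral water channel in secretory epithelia, was at 0.684, 0.801 and 0.355 CPM in WT mice and at 0.306, 0.217, 0.304, 0.288 and 0.158 CPM in *Tlr7* KO mice. The groups did not overlap, and between 3 and 20 counts per mouse lay behind these values. *Aqp4* was 2.32-fold lower in *Tlr7* KO (log2 fold change -1.22, standard error 0.384, adjusted p = 0.0368), a call lost on leaving out any single mouse except WT 3, with DESeq2 (adjusted p = 0.0612) and in the second deposited table (adjusted p = 0.0695). WT 1 and WT 2, which had the most *Aqp4*, were also the WT mice with skeletal muscle genes, while *Tlr7* KO 4 with 259 CPM of them had 0.288 CPM of *Aqp4*. *Aqp4* is also known from skeletal muscle, and myoepithelial markers (6 of 6 genes) summed to between 70.9 and 84.5 CPM in WT and between 39.6 and 50.2 CPM in *Tlr7* KO. The part of either tissue in the *Aqp4* difference was not tested. *Aqp3* (ENSMUSG00000028435, chr4:41092722-41098183, minus strand), an aquaglyceroporin, was at 0.444, 0.169 and 0.492 CPM in WT and between 0.124 and 0.522 CPM in *Tlr7* KO mice (log2 fold change -0.37, standard error 0.537, adjusted p = 0.622). At most 18 counts per mouse lay behind it.

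The receptor and the calcium sensor did not pass the test in *Tlr7* KO glands. *Chrm3* (ENSMUSG00000046159, chr13:9875486-10360847, minus strand) was at 6.97, 7.97 and 7.13 CPM in WT and at 8.76, 8.91, 10.5, 9.14 and 7.34 CPM in *Tlr7* KO mice. Only *Tlr7* KO 5 fell within the WT range. The estimate on the log2 scale was 0.28 (standard error 0.12), with an unadjusted p of 0.043 and an adjusted p of 0.0998. *Chrm3* passed in 1 of 17 alternative settings, without *Tlr7* KO 5 (log2 fold change 0.34, adjusted p = 0.0449). *Stim1* (ENSMUSG00000030987, chr7:102267806-102437319, plus strand) was at 15.3, 15.8 and 15.2 CPM in WT and between 13.6 and 17.7 CPM in *Tlr7* KO mice. Its log2 fold change was 0.04, with a 95% interval from -0.17 to 0.24 (adjusted p = 0.779).

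**Figure D2:**
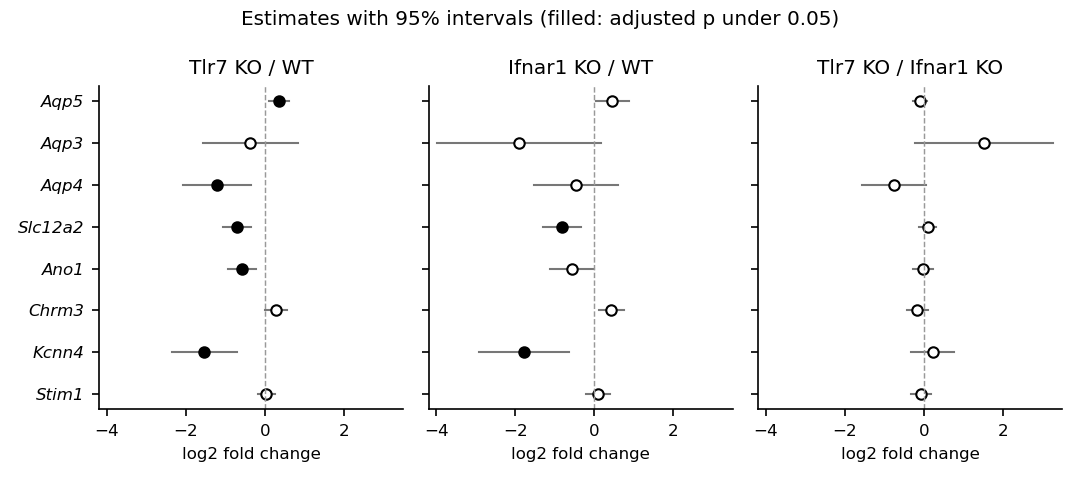
Log2 fold change of each tested gene with its 95% interval from edgeR's quasi-likelihood test, for *Tlr7* KO over WT, *Ifnar1* KO over WT and *Tlr7* KO over *Ifnar1* KO; filled points passed an adjusted p of 0.05. *Slc12a2* and *Kcnn4* are filled in both comparisons with WT, and no gene is filled between the knockouts.

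*Ifnar1* KO glands were compared with the same WT mice to ask about loss of type I interferon signaling. *Slc12a2* and *Kcnn4* were lower in *Ifnar1* KO, 2 of the 8 genes tested, where 19.2% of all genes tested passed (12.4% lower and 6.76% higher). A further 3 genes, *Aqp5*, *Ano1* and *Chrm3*, had an unadjusted p under 0.05 and did not pass after adjustment. This made 5 of the 8 at an unadjusted p under 0.05, as were 5235 of all 13937 genes tested. Over all 8 tested, the median change on the log2 scale was -0.52, against -0.02 for all genes. Without any single mouse other than WT 2 none of the genes then tested was called by edgeR, with between 3 and 5 at an unadjusted p under 0.05, and without WT 2 there were 4. Calls over all genes moved alike, to 34.4% without WT 2, 11.4% without *Ifnar1* KO 2 and at most 0.806% without any other mouse. *Aqp3* had too few counts to be tested without WT 1 or WT 3.

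*Kcnn4* was at 1.94, 3.55 and 2.93 CPM in *Ifnar1* KO mice 1 to 3, all below the lowest WT mouse. It was 3.42-fold lower (log2 fold change -1.77, standard error 0.487, adjusted p = 0.0437). *Slc12a2* was at 15.4, 15.3 and 12.7 CPM in *Ifnar1* KO mice, again all below WT, and was 1.77-fold lower (log2 fold change -0.82, standard error 0.211, adjusted p = 0.0374). Both calls were lost on leaving out any single mouse except WT 2. Without WT 3 the log2 fold change was -1.05 for *Kcnn4* (adjusted p = 0.0906) and -0.60 for *Slc12a2* (adjusted p = 0.0894).

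*Ano1* was at 25.9, 17.8 and 18.7 CPM in *Ifnar1* KO mice, and *Ifnar1* KO 1 lay inside the WT range (log2 fold change -0.57, standard error 0.24, adjusted p = 0.127). *Aqp5* was at 157, 136.3 and 168.7 CPM in *Ifnar1* KO mice, all above the WT mice (log2 fold change 0.45, standard error 0.178, adjusted p = 0.11). *Chrm3* was at 11.2, 9.11 and 9.80 CPM, also all above WT (log2 fold change 0.43, standard error 0.134, adjusted p = 0.062). With *Slc12a2* and *Kcnn4* on the lower side, 4 of the 8 genes did not overlap with WT, where 41.8% of all genes tested did not.

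*Aqp3* had 0 counts in *Ifnar1* KO 2 and at most 0.204 CPM in this group (log2 fold change -1.91, 95% interval -3.98 to 0.16, adjusted p = 0.159). This estimate was -3.10 without *Ifnar1* KO 1 and -1.35 without *Ifnar1* KO 2, and passed the test in neither case. *Aqp4* was at 0.374, 0.374 and 0.586 CPM and lay within the WT range (log2 fold change -0.47, adjusted p = 0.49). *Stim1* was at 19.2, 14.2 and 16.7 CPM, on both sides of the WT mice (log2 fold change 0.09, 95% interval -0.22 to 0.40, adjusted p = 0.641).

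WT 3 and *Ifnar1* KO 2, the mice with the most salivary gland RNA, differed in part of these genes. WT 3 was the highest of all 11 mice for *Slc12a2*, *Ano1* and *Kcnn4*, whereas *Ifnar1* KO 2 was the lowest of all 11 for *Ano1*, the middle mouse of its group for *Slc12a2* and the highest of its group for *Kcnn4*. With both of these mice left out, a choice made after seeing the data, none of the 7 genes then tested passed edgeR's test and 2 had an unadjusted p under 0.05, where 3.48% of all genes passed, *Aqp3* having too few WT counts. The log2 fold change was then -0.63 for *Slc12a2* (adjusted p = 0.151) and -1.25 for *Kcnn4* (adjusted p = 0.0957). The part of salivary gland tissue in these differences was not tested.

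**Figure D3:**
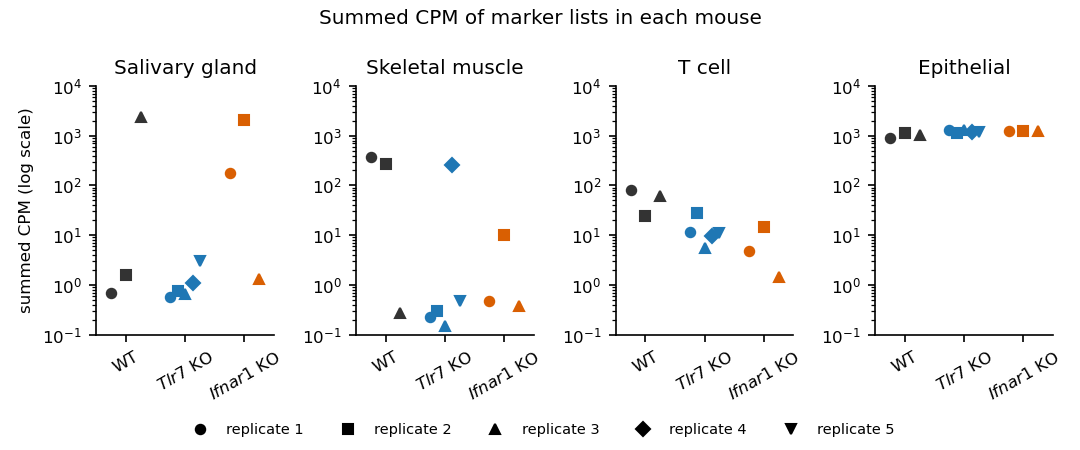
Summed CPM of the salivary gland, skeletal muscle, T cell and epithelial marker lists in every mouse, on a log axis, by group; the symbol gives the replicate number. T cell markers are highest in WT 1 and WT 3, with WT 2 at 24.2 CPM just below *Tlr7* KO 2 at 28.5 CPM, and salivary gland and skeletal muscle genes are high in a few mice of different groups.

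The knockouts were compared with each other directly, since each had been set against the same WT mice. No gene of the 8 passed edgeR's test, where 1.79% of all genes tested passed, and none had an unadjusted p under 0.05. None passed with DESeq2, where 4.14% of all genes did. The lowest adjusted p was 0.334, for *Aqp4*, which was lower in every *Tlr7* KO mouse than in every *Ifnar1* KO mouse (log2 fold change -0.76, 95% interval -1.57 to 0.05). This was 1 gene of 8 without overlap, where 10.7% of all genes tested did not overlap. For the better measured genes the intervals were narrow. The log2 fold change of *Tlr7* KO over *Ifnar1* KO was 0.10 for *Slc12a2* (95% interval -0.11 to 0.30), -0.01 for *Ano1* (95% interval -0.27 to 0.24) and -0.11 for *Aqp5* (95% interval -0.29 to 0.07). It was 0.22 for *Kcnn4* (95% interval -0.31 to 0.76) and -0.16 for *Chrm3* (95% interval -0.42 to 0.10). A change of the size seen against WT lay outside the interval for *Slc12a2*, *Ano1* and *Kcnn4*, while *Aqp3* (log2 fold change 1.52, 95% interval -0.23 to 3.27) was too poorly measured to bound. The *Aqp3* estimate was 0.96 without *Ifnar1* KO 2 and 2.72 without *Ifnar1* KO 1.

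Scaling moved all genes together. With library size only, all genes tested had a median log2 change of -0.54 for *Tlr7* KO and -0.31 for *Ifnar1* KO against WT, and with the epithelial genes of -0.31 and -0.30. Under library size only, 97.2% of the genes called for *Tlr7* KO and 96.2% of those for *Ifnar1* KO were lower, compared with 53.2% and 64.8% under TMM, and under the epithelial scaling 88.4% and 93.9% were. Since both scalings moved all genes down, they could hardly turn the sign of genes that were lower under TMM. *Chrm3* in *Tlr7* KO went from 0.28 to -0.19 with library size only, and *Stim1* in *Tlr7* KO from 0.04 to -0.45.

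**Figure D4:**
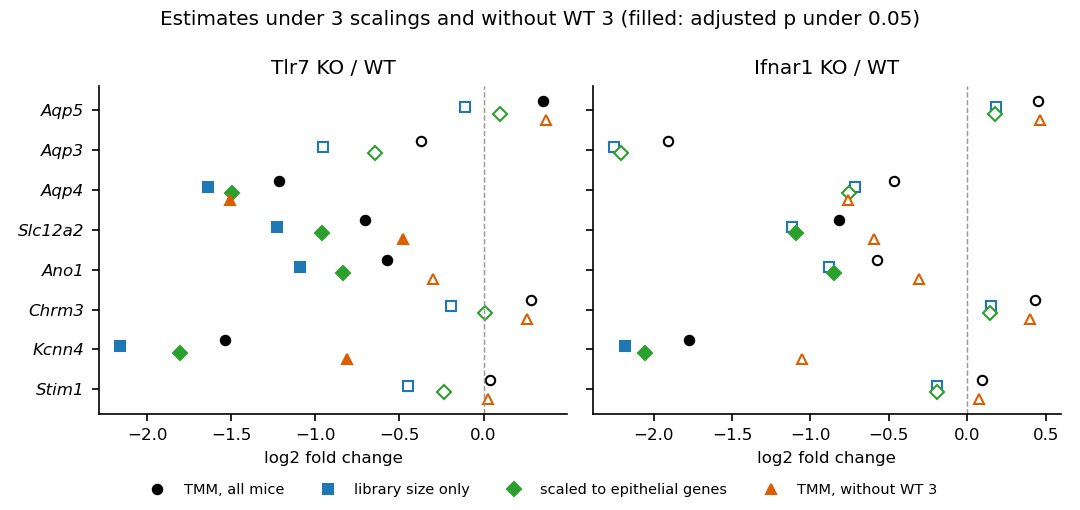
Log2 fold change against WT of each tested gene under TMM, library size only and epithelial scaling, and under TMM without WT 3; filled symbols passed an adjusted p of 0.05. *Kcnn4* moves toward 0 without WT 3, and *Aqp5* in *Tlr7* KO falls on either side of 0 depending on the scaling; *Aqp3* had too few WT counts to be tested without WT 3.

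Other genes of the same secretory route were taken from 6 lists of 64 genes, of which 49 could be tested. In *Tlr7* KO 19 of the 49 passed (38.8%, where 32.8% of all genes did), with 11 lower and 8 higher, and in *Ifnar1* KO 11 passed (22.4%, where 19.2% of all genes did), with 6 lower and 5 higher. Both shares are near those of all genes. The split by direction depended on the scaling. With library size only it was 14 lower and 0 higher in *Tlr7* KO, and 4 lower and 0 higher in *Ifnar1* KO. With epithelial scaling it was 19 lower and 1 higher in *Tlr7* KO, and 6 lower and 1 higher in *Ifnar1* KO. Median log2 fold changes over the 49 were 0.07 for *Tlr7* KO and 0.10 for *Ifnar1* KO. On leaving out WT 1, WT 3, *Ifnar1* KO 1 or *Ifnar1* KO 3, edgeR called none of the pathway genes then tested in *Ifnar1* KO. Between 13 and 16 of them had an unadjusted p under 0.05, and these fits called at most 0.806% of all genes.

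Among receptors and the Gq to IP3 step, 6 of 11 genes passed in *Tlr7* KO (all genes 32.8%) and 2 of 11 in *Ifnar1* KO (all genes 19.2%). *Chrm1*, the M1 muscarinic receptor, was lower (12.6 to 7.91 CPM, log2 fold change -0.67, a call lost without *Tlr7* KO 4), and *Vipr1*, a receptor for vasoactive intestinal peptide, was higher (10.1 to 16.8 CPM, log2 fold change 0.73). The IP3 receptors, which release calcium from the endoplasmic reticulum, split by member. *Itpr1* (log2 fold change -1.16) and *Itpr2* (log2 fold change -1.45) were lower in *Tlr7* KO, while *Itpr3* was higher (61.4 to 89.3 CPM, log2 fold change 0.54). *Gnaq*, the Gq alpha subunit, was higher in *Tlr7* KO (log2 fold change 0.57) and in *Ifnar1* KO (log2 fold change 0.37). The *Gnaq* call in *Ifnar1* KO was lost on leaving out any single mouse. *Itpr2* was lower in *Ifnar1* KO as well (log2 fold change -1.47). With library size only the higher calls of *Vipr1*, *Itpr3* and *Gnaq* in *Tlr7* KO and of *Gnaq* in *Ifnar1* KO were lost.

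Among calcium handling genes, *Tlr7* KO had 6 of 9 called (all genes 32.8%) and *Ifnar1* KO 3 of 9 (all genes 19.2%). The endoplasmic reticulum calcium pumps went in opposite directions. *Atp2a3* (SERCA3) was lower, from 29.6 CPM in WT to 9.49 CPM in *Tlr7* KO (log2 fold change -1.65) and 8.69 CPM in *Ifnar1* KO (log2 fold change -1.80), and *Atp2a2* (SERCA2) was higher, from 103 CPM to 141.9 CPM (log2 fold change 0.46) and 153.7 CPM (log2 fold change 0.56). *Orai2*, a store-operated calcium channel, was lower in *Tlr7* KO (log2 fold change -1.78) and *Ifnar1* KO (log2 fold change -2.44, or -3.34 without *Ifnar1* KO 2). *Stim2* (log2 fold change 0.44) and *Saraf* (log2 fold change 0.41), the latter an inhibitor of store-operated entry, were higher in *Tlr7* KO, and the plasma membrane pump *Atp2b4* was lower there (log2 fold change -0.97). The *Atp2b4* call was lost without WT 1, WT 3 or any *Tlr7* KO mouse other than 2, and the *Saraf* call without WT 1, WT 3, *Tlr7* KO 1 or *Tlr7* KO 4. B cell markers (6 of 6 genes, all lower in each knockout and none at 0 in a whole group) summed to between 71.3 and 250 CPM in WT, between 5.24 and 43.3 CPM in *Tlr7* KO and between 2.3 and 18.3 CPM in *Ifnar1* KO mice. The part of lymphocytes in the lower *Orai2*, *Atp2a3*, *Atp2b4*, *Itpr1* and *Itpr2* was not tested. With library size only the *Tlr7* KO estimates for *Atp2a2*, *Stim2* and *Saraf* were below 0, and the higher call of *Atp2a2* in *Ifnar1* KO was lost.

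Of the anion transport genes, *Tlr7* KO had 4 of 15 called (all genes 32.8%) and *Ifnar1* KO 3 of 15 (all genes 19.2%). *Car2*, the carbonic anhydrase that supplies bicarbonate, had the largest fold change of the tested genes of all pathway lists in both knockouts. It had only between 4 and 20 counts per mouse in *Tlr7* KO and between 3 and 19 in *Ifnar1* KO. Its level went from 2.54 CPM in WT to 0.422 CPM in *Tlr7* KO (log2 fold change -2.60, adjusted p = 0.0035) and 0.392 CPM in *Ifnar1* KO (log2 fold change -2.69, adjusted p = 0.023, and -3.40 without *Ifnar1* KO 2). The chloride/proton exchanger *Clcn3* was higher in *Tlr7* KO (log2 fold change 0.48, or -0.01 with library size only) and *Ifnar1* KO (log2 fold change 0.55). The anoctamin *Ano6* was lower in *Tlr7* KO (log2 fold change -0.34), and the bicarbonate cotransporter *Slc4a7* was higher in *Ifnar1* KO (log2 fold change 0.58). The sodium pump beta subunits *Atp1b1* (log2 fold change -1.10 and -0.85 in *Tlr7* KO and *Ifnar1* KO) and *Atp1b3* (-0.55 and -0.56) were lower in both. *Aqp9* was higher in both, from 2.93 CPM in WT to 5.15 CPM and 7.47 CPM (log2 fold change 0.82 and 1.34), with the *Tlr7* KO call lost without WT 3. With library size only the higher calls of *Aqp9* and *Clcn3* in both knockouts and of *Slc4a7* in *Ifnar1* KO were lost. None of the 5 tight junction genes passed edgeR's test in either knockout. At an unadjusted p under 0.05 were 3 in *Tlr7* KO and 1 in *Ifnar1* KO, where 6251 and 5235 of all 13937 genes were. Between the knockouts none of the 49 genes passed with edgeR (all genes 1.79%) and 2 passed with DESeq2 (all genes 4.14%). With edgeR 10 of the 49 had an unadjusted p under 0.05, as did 2270 of all 13937 genes tested.

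**Figure D5:**
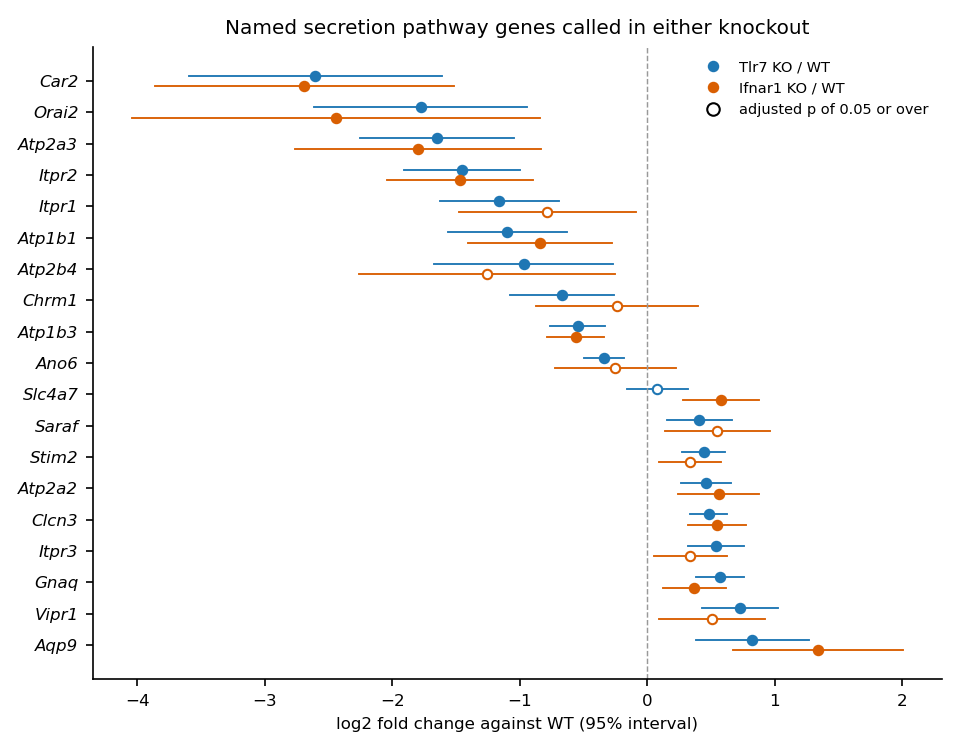
Log2 fold change against WT with its 95% interval for the named secretory pathway genes called in either knockout; filled points passed an adjusted p of 0.05. *Car2*, *Orai2* and *Atp2a3* lie farthest below 0, and *Aqp9* lies farthest above 0.

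Over the 11 mice, log2 CPM of *Slc12a2* correlated with *Ano1* (Pearson's r = 0.87) and *Kcnn4* (r = 0.85), *Aqp5* with *Chrm3* (r = 0.79), and *Kcnn4* inversely with *Chrm3* (r = -0.83) and *Aqp5* (r = -0.72). These values are descriptions, since the mice share group means, depth and scaling. Among the 5048 genes that averaged 10 CPM or more, the pattern of *Kcnn4* was most like those of *Cd81* (r = 0.96), *Mgat4a* (r = 0.95) and *Tcim* (r = 0.95). *Slc12a2* was most like *Sftpd* (r = 0.93), *Ccl9* (r = 0.93) and *Tcim* (r = 0.92), and *Ano1* like *Dtx4* (r = 0.93), *Sgms1* (r = 0.91) and *St5* (r = 0.88). *Aqp5* was most like *Sfxn1* (r = 0.96), *Klhl21* (r = 0.96) and *Sh3bp4* (r = 0.96), and *Chrm3* like *Cdc42bpb* (r = 0.96), *Magi1* (r = 0.95) and *Cdc42bpa* (r = 0.94). *Stim1* was most like *Zpr1* (r = 0.90), *Zfp598* (r = 0.89) and *Myo1d* (r = 0.88). *Aqp4* was most like *Mast2* (r = 0.87), the smooth muscle myosin gene *Myh11* (r = 0.85) and *Rtf1* (r = 0.85). For *Aqp3* and *Cftr*, at a few counts per mouse, the highest values were 0.81 with *Entr1* and 0.85 with *Tnfrsf1a*.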

How the data were processed

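Lacrimal gland RNA of 11 mice (3 WT, 5 *Tlr7* KO, 3 *Ifnar1* KO) was sequenced on an Illumina HiSeq instrument. The authors aligned reads to mm10 with HISAT2 2.1.0 and also quantified them with salmon and tximport. The deposited main table gave whole-number estimated counts of 19058 genes. Although called normalized, its totals and size factors differed between libraries, and it was treated as unscaled. Whole counts of 39017 genes in a second deposited table were used as an alternative. Which tool made which table is not given in the sources used here. An *Ifnar1* KO column without a sample (1 in all) was not used.

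R 4.3.3 with edgeR 4.0.16 was used (limma 3.58.1, DESeq2 1.42.0). Genes with at least 30 summed WT counts (13937) were TMM scaled and compared in separate two-sided quasi-likelihood fits for each pair of groups, with Benjamini-Hochberg adjustment over all genes tested and a threshold of 0.05. Fold changes are the second group over the first, and standard errors follow from the F statistic. Merged exon lengths are from GENCODE M21 (GRCm38). The 9 genes, the pathway lists and the marker lists were chosen with earlier results of these data known. Named genes were the 9, pathway genes called in any comparison, *Tlr7*, *Ifnar1* and, for each of the 9, the 3 genes most correlated with it. Some pathway genes are counted but not reported by name here. Marker lists were written from general knowledge. On simulated counts for WT against *Tlr7* KO (13937 genes), 53 of 100 genes changed 2-fold and 97 of 100 changed 4-fold were recovered. The simulation gave every gene the same dispersion and changed far fewer genes than were called here, so these shares need not hold for these data. Counting floors cover counting error only, and p values measure the spread between single glands of separate mice. Alternatives were DESeq2, other scalings and filters, all mice in a single fit, the replicate number as a block, the second table, a threshold of 0.01 and each mouse left out.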

Additional observations from a re-analysis of the deposited data

How the results depend on the processing

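On leaving out each mouse in turn, between 2 and 4 of the secretion genes then tested (7 without WT 1 or WT 3, where *Aqp3* had too few counts, and otherwise 8) were called in *Tlr7* KO, between 0 and 4 in *Ifnar1* KO and 0 in each case between the knockouts, and the pathway genes called ranged from 15 to 24, from 0 to 19 and from 0 to 3. Over all genes tested the share called ranged from 20.2% to 48.9%, from 0% to 34.4% and from 0.61% to 6.29%. At an adjusted p under 0.01 no secretion gene was called in *Tlr7* KO, where 14.1% of all genes passed. In *Ifnar1* KO 0 secretion and 0 pathway genes were called at this threshold, where 0.00718% of all genes passed. An unadjusted p under 0.05 was held by 6 secretion genes in *Tlr7* KO, and by 5 secretion and 23 pathway genes in *Ifnar1* KO. Over all 13937 genes tested, 6251 and 5235 had an unadjusted p under 0.05. In *Ifnar1* KO, all mice in a single fit gave 5 secretion and 22 pathway genes (36.8% of all genes), library size only gave 1 and 4 (9.61%), epithelial scaling gave 7 pathway genes (20.6%), and leaving out WT 3 and *Ifnar1* KO 2, the mice with the most salivary gland RNA, gave 0 and 1 (3.48%), where 19.2% of all genes were called under the main settings. Between the knockouts, DESeq2 called 2 pathway genes (4.14% of all genes), and 1 was called with the second table (1.72%). The cause of these shifts was not tested.

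Replicate numbers did not pair the mice, with correlations of same-numbered mice of -0.142, -0.4 and 0.03 for WT and *Tlr7* KO, and -0.158, -0.44 and -0.275 for WT and *Ifnar1* KO. Between the knockouts they were 0.064, 0.34 and 0.26, and each *Ifnar1* KO mouse correlated best with its own number, a hint from the data only. With the replicate block, edgeR called 0 secretion genes in *Tlr7* KO (3 at an unadjusted p under 0.05) and 0 in *Ifnar1* KO (3), and 0 pathway genes in each (16 and 18), where 0.1% and 0% of all genes were called. Between the knockouts the block gave 2 pathway genes, where 3.6% of all genes were called.

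Some log2 fold changes turned sign. With library size only, *Tlr7* KO over WT gave *Aqp5* -0.112, *Chrm3* -0.194, *Stim1* -0.45, *Clcn3* -0.012, *Atp2a2* -0.013, *Saraf* -0.049 and *Stim2* -0.063, *Ifnar1* KO over WT gave *Stim1* -0.193, and *Tlr7* KO over *Ifnar1* KO gave *Slc12a2* -0.108. With epithelial scaling *Stim1* was at -0.234 in *Tlr7* KO and -0.195 in *Ifnar1* KO, and *Ano1* between the knockouts was at 0.015, with 0.019 in the second table. On leaving out single mice, *Stim1* ranged from -0.006 to 0.086 in *Tlr7* KO and from -0.001 to 0.204 in *Ifnar1* KO. Between the knockouts *Ano1* ranged from -0.114 to 0.178 and *Stim1* from -0.172 to 0.049. Of the remaining single-gene values under settings other than leaving out a mouse, 398 kept direction and call, 83 lost the call and 4 gained it. *Aqp3*, *Aqp4* and *Cftr* are limited by depth.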
